A study of Mus musculus with 6 samples.

Results

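Galntl6 encodes a member of the polypeptide N-acetylgalactosaminyltransferase family, and 8 of the 230 regions that the authors listed as differentially methylated in the CG context lay in it. The members were selected on position, as the listed regions that share at least 1 base with the gene, which occupies 57772489 to 58912531 on chromosome 8 (RefSeq annotation of GRCm38.p6) and is read from the minus strand. The authors listed these regions because they differed between the groups, so the levels, differences and q-values below describe that choice and are not tested. Whole-genome bisulfite sequencing was applied to CA1, a pyramidal cell field of the hippocampus, laser-dissected from frozen brain. The groups were 3 wild type and 3 Neil3-/- mice, all male, 3 to 6 months old, on a C57Bl6 background and untreated in their home cage. NEIL3 is a DNA glycosylase of base excision repair, and Neil3 lies on the same chromosome as Galntl6. The authors' deposited table gives 1 mean per group and region, without values of single animals or read coverage, so depth is unknown and no spread between animals can be given. Which mean is wild type is known only from the order of the names in the sheet title. The table holds no expression values, so the CA1 label was not checked against marker genes.

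Enzymes of this family sit in the Golgi membrane and move N-acetylgalactosamine from a nucleotide sugar to serine or threonine of proteins, the first step of mucin-type O-glycosylation. Other transferases then extend or cap that first sugar. In mammalian genomes most CpGs outside CpG-rich starts are methylated, inside long genes as well as between genes. A bisulfite level near 1 means that nearly all reads kept their cytosines, and a level near 0 that nearly all were converted. Bisulfite sequencing reads 5-methylcytosine and 5-hydroxymethylcytosine alike.

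A start of the gene is shown first, because distances below are counted from it. It also differs from the start of Galnt7, the family member next to it. The Galntl6 start used, 58911627, lies inside the upper bound of the gene, 58912531, and the authors also list a start further out, at 58912640. The Galnt7 start is the upper bound of its gene, 57653055, so the windows differ in this respect. Each window runs 5′ to 3′ from 250 bases before to 50 bases after the RefSeq start (GRCm38.p6, minus strand), and capitals mark each CpG. The Galntl6 window is chr8:58911578-58911877 and the Galnt7 window chr8:57653006-57653305.
Galntl6 start: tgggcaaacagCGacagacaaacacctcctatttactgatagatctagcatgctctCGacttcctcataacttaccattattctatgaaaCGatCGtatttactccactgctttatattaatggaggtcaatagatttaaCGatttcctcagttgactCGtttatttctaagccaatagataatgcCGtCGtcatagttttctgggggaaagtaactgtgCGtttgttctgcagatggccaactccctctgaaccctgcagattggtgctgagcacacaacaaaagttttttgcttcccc
Galnt7 start: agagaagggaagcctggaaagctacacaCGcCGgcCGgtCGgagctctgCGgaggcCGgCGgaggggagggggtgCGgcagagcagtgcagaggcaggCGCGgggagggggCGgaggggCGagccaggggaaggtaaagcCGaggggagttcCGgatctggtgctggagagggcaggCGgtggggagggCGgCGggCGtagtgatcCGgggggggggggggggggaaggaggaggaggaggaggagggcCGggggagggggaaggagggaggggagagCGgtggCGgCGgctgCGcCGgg
The Galntl6 window held 9 CpGs in 300 bases, or 3.0 per 100 bp, with 41.7% G and C. The letters CG, the same on both strands, occur at least once in 94.6% of the 32851 RefSeq windows of this length, and 45.8% hold 9 or more. The Galnt7 window held 25 CpGs, or 8.33 per 100 bp, with 75.0% G and C, and 18.4% of the windows hold that many. No listed region reached either start. The nearest one lay 64.7 kb from the Galntl6 window and 22.9 kb from the Galnt7 window.

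All 8 regions of Galntl6 were lower in the knockout, with authors' means of 0.0119 to 0.213, whereas wild type means were 0.703 to 0.946. The 2 ranges do not overlap. The median of the authors' means was 0.870 for wild type against 0.0955 for the knockout, and the median difference was -0.76 (knockout against wild type, authors' deposited table). Lower levels in the knockout were the common direction where the gene lies. Of all 230 listed regions, these 8 included, 70.9% were lower, while on other chromosomes 51 of 112 were lower and 61 higher. Of the 106 other regions in the stretch of chromosome 8 around Neil3 (47003301 to 60851601) 96.2% were lower. The count in Galntl6 therefore does not set the gene apart within that stretch. The 8 regions lay 4.37 to 5.21 Mb from Neil3. The Neil3-/- animals carried the disrupted gene together with the chromosome around it, so the loss of NEIL3 and a difference of that stretch of chromosome 8 cannot be told apart. Coverage is not given, nor how CpGs without reads entered the means, so how many reads lie behind the low knockout levels is unknown.

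**Figure D1:**
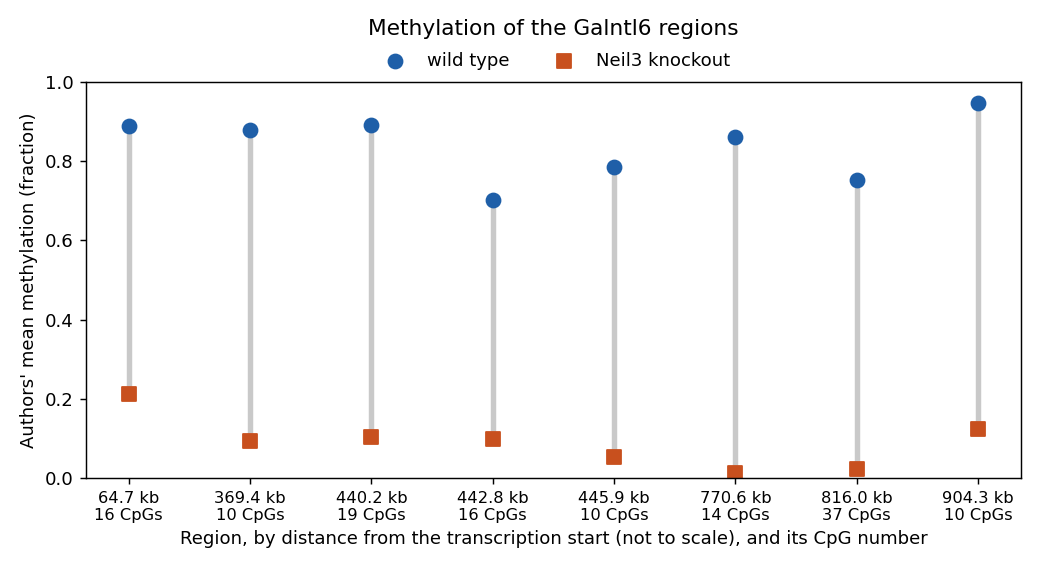
Authors' mean methylation (fraction, 0 to 1) of the 8 regions in wild type (circles) and Neil3 knockout (squares), ordered by distance from the transcription start and joined by grey lines. Wild type means run from 0.703 to 0.946 and knockout means from 0.0119 to 0.213, so every circle is above every square.

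In the direction of transcription, the first region began 64.7 kb from the RefSeq start, at 58846143 to 58846884 with 16 CpGs. The wild type mean of the authors, 0.889, stood against a knockout mean of 0.213, with q = 0.00168 in the authors' deposited table. This was the least complete loss of the 8, with 23.9% of the wild type level left.

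The next region lay 369 kb from the start, at 58541562 to 58542194 with 10 CpGs. Here the authors' mean dropped from a wild type level of 0.878 to 0.0933, and the authors' deposited table gives q = 0.00138.

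A tight group of 3 regions followed, 440.2 to 445.9 kb from the start, which together spanned 6.19 kb and held 45 CpGs. At 58470984 to 58471428, where 19 CpGs were counted, the authors' wild type mean was 0.891 and their knockout mean 0.104 (authors' deposited table, q = 1.24e-07). At 58467889 to 58468812, with 16 CpGs, the same means were 0.703 and 0.0977 (authors' deposited table, q = 3.09e-05). At 58465239 to 58465764, with 10 CpGs, they were 0.784 and 0.0533 (authors' deposited table, q = 0.0246). The middle region of the group had the lowest wild type mean and the smallest difference of the 8, -0.61 in the authors' deposited table. The last one had the highest q-value of the 8, against a maximum of 0.0475 over the whole table.

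The regions deepest in the gene held both the lowest knockout levels and the highest wild type level. At 58140110 to 58140998, 771 kb from the start with 14 CpGs, the authors' wild type mean was 0.861 and their knockout mean 0.0119 (authors' deposited table, q = 1.13e-09). That left 1.38% of the wild type level, the lowest share of the 8 regions. At 58095218 to 58095639, 816 kb from the start with 37 CpGs, these means were 0.752 and 0.0234 (authors' deposited table, q = 2.91e-17). At 58006779 to 58007360, 904 kb from the start with 10 CpGs, they were 0.946 and 0.124 (authors' deposited table, q = 2.32e-05). That wild type mean was above those of 105 of the 106 other regions around Neil3. Across the 8 regions, the knockout mean was under 0.1 in 5 and between 0.104 and 0.213 in the other 3, and these 3 were not neighbours: they were the regions at 64.7, 440.2 and 904 kb.

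The losses were unevenly spaced. The 8 regions covered 5155 bp, or 0.452% of the 1140 kb of the gene, and the first and last of them spanned 840 kb. Of the 7 gaps between them, 2 were over 300 kb (304 kb and 324 kb), 3 were between 44.5 and 87.9 kb, and 2, inside the group of 3, were 2.17 and 2.13 kb. Long gaps were also seen across the stretch around Neil3, where 14 of 113 gaps, those of the gene included, were over 300 kb. The median gap was 40.2 kb in that stretch and 70.1 kb in the gene. The part of the gene beyond the last region, 234 kb at its 3′ end, held none. All 8 lay away from the 9 transcription starts that the authors' second table gives for Galntl6, of which 4 starts are within 1.1 kb of the RefSeq start and 5 are further inside the gene. The distance from a region to its nearest listed start ran from 44.2 kb, to the start at 57962564, to 235 kb. The annotation used places 4 other genes within or across the bounds of Galntl6 (Gm2921, Gm15881, LOC115487053 and BC030500), and no region overlapped any of them. Exons and introns were not analysed here.

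**Figure D2:**
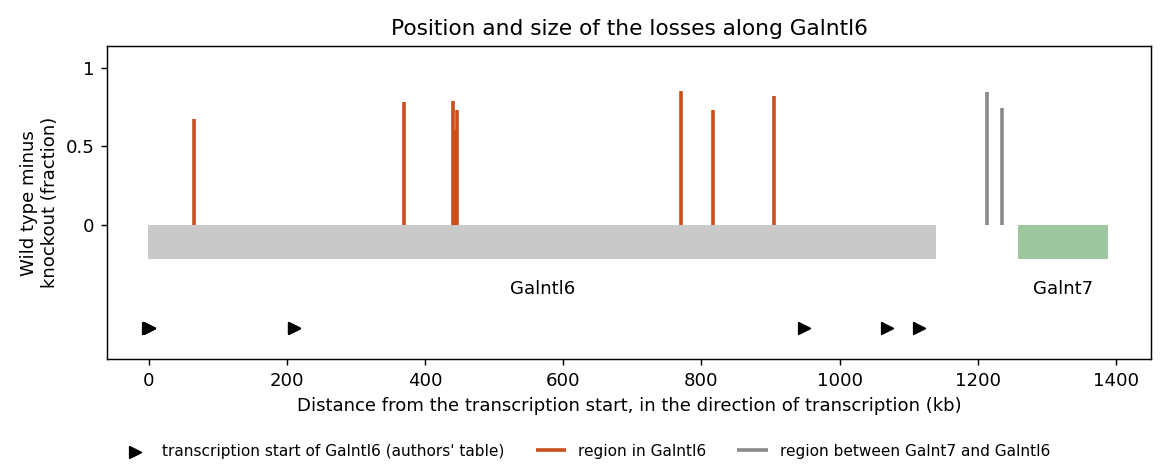
Map of Galntl6 (grey bar) and its neighbour Galnt7 (green bar) by distance from the Galntl6 transcription start in kb, drawn in the direction of transcription, with vertical lines whose height is the deposited difference, wild type minus knockout. The 8 lines within the gene stand in groups separated by 2 gaps of over 300 kb, and 2 further lines stand between the genes, with none in Galnt7.

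Just outside the gene, the nearest listed regions had levels within or near those of the members. Between Galntl6 and Galnt7, whose bounds are 119 kb apart, there were 2 regions. The one 73.8 kb from Galntl6, at 57698303 to 57698641 with 10 CpGs, had an authors' mean of 0.902 for wild type against 0.0524 for the knockout. The one 95.5 kb away, at 57676176 to 57677034 with 49 CpGs, had 0.791 against 0.0485, and lay 23.1 kb from Galnt7. On the other side, upstream of the start, the next listed region was 1.36 Mb from the gene, at 60273330 to 60273681, with authors' means of 0.875 for wild type and 0.0933 for the knockout. The gap from the first region of Galntl6 to that one, 1.43 Mb, was the longest of the 113 gaps between listed regions around Neil3, of which the second longest was 1.01 Mb. None of these 3 flanking regions overlapped an annotated gene.

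CpGs were sparse in most of the Galntl6 regions. The 8 regions held 132 CpGs, 10 to 37 each, and their median density was 1.82 CpGs per 100 bp, or 1 CpG per 55.1 bp. Over the 106 other regions around Neil3 the median density was 3.88 CpGs per 100 bp, and over the 112 regions on other chromosomes it was 8.83. In 6 of the 8 Galntl6 regions the density was between 1.58 and 2.16, below the lower quartile of 2.74 of the other regions around Neil3. The exceptions were the region at 816 kb, with 8.79 CpGs per 100 bp, and the region at 440.2 kb, with 4.28. Of the 106 other regions, 7 had a density under the Galntl6 median. The regions of Galntl6 were also a little longer, with a median of 606.5 bp against 541.5 bp, and 7 of 8 held fewer than the 20 CpGs that are the median of the others. Few CpGs per region were also seen in Tenm3, a long gene of the same stretch, and in Stox2. In Tenm3 8 of 10 regions held under 20 CpGs, with a median of 14.5 against 15 in Galntl6, and in Stox2 3 of 5 did. Their median densities were higher than in Galntl6, 3.61 CpGs per 100 bp in Tenm3 and 4.46 in Stox2. Enpp6, also of that stretch, went the other way in CpG number: 1 of its 4 regions held under 20 CpGs, with a median of 22.5. Its median density was 5.21 CpGs per 100 bp, but its sparsest region, at 1.40, was below every Galntl6 region. The table's regions each hold at least 10 CpGs, so density and length depend on how regions were called, and these differences were not tested. The authors' second table gives a G and C content of 37.6% for the whole of Galntl6, the fifth lowest of its 36 genes, whose median is 42.4%.

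**Figure D3:**
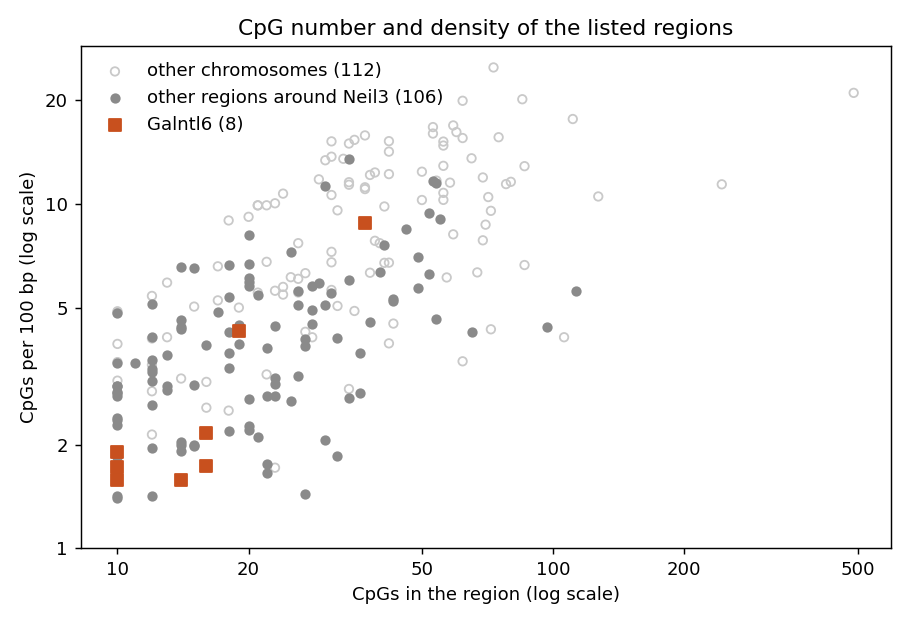
CpG number (log scale) against CpGs per 100 bp (log scale) of every listed region of Galntl6 (squares), of the other regions around Neil3 (filled circles) and of other chromosomes (open circles). Of the 8 squares, 6 lie between 1.58 and 2.16 CpGs per 100 bp, below the median of 3.88 of the other regions around Neil3.

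The q-values differed widely between members with like differences. The regions at 445.9 kb and at 816 kb had deposited differences of -0.73 each, but the first held 10 CpGs and had q = 0.0246, and the second held 37 CpGs and had q = 2.91e-17 (authors' deposited table). The region with the largest difference, -0.85 at 771 kb, held 14 CpGs and had q = 1.13e-09 (authors' deposited table). The 3 regions with 10 CpGs had q-values of 2.32e-05 to 0.0246 in the authors' deposited table.

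**Figure D4:**
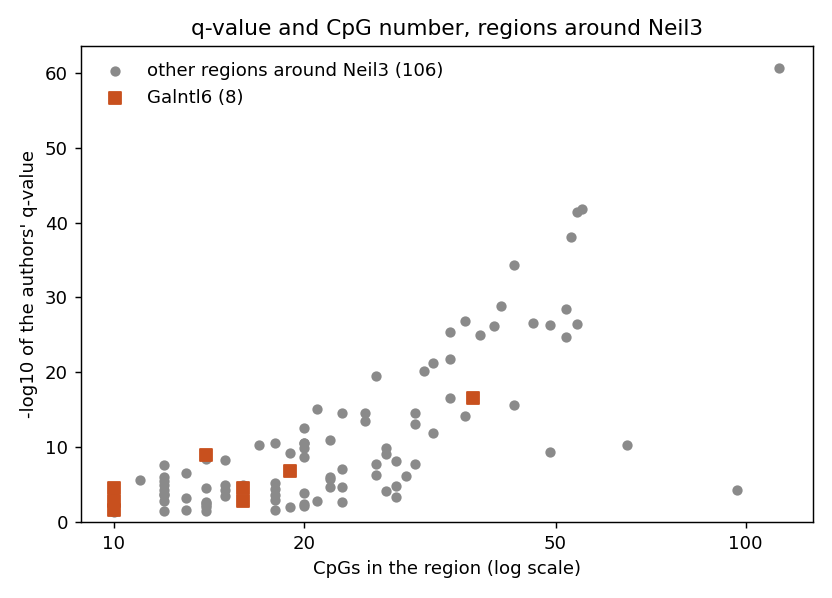
CpG number (log scale) against -log10 of the authors' q-value for the 8 regions of Galntl6 (squares) and the 106 other regions around Neil3 (circles). The square with 37 CpGs is the highest of the 8, and the 3 squares with 10 CpGs stand at q-values of 2.32e-05 to 0.0246.

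In level, the Galntl6 regions lay within the range of the others around Neil3. The median of the authors' means over those 106 regions was 0.861 for wild type and 0.112 for the knockout, and the latter was under 0.1 in 49 of them (46.2%) against 5 of 8 in Galntl6. The median deposited loss, wild type minus knockout, was 0.758 in Galntl6 and 0.738 in the others. Of the 8, 5 had a wild type mean above the others' median, 6 had a knockout mean below it and 4 had a loss above it. Losses in Galntl6 ran from 0.605 to 0.849, while the larger set held 4 gains and losses of up to 0.926 in the authors' deposited table. Among the genes of the stretch with the most regions, Tenm3, which encodes a teneurin adhesion protein, had 10 regions, 9 lower and 1 higher, with a median loss of 0.624, Stox2 had 5, 4 lower and 1 higher, with 0.544, and Enpp6, a choline phosphodiesterase of oligodendrocytes, had 4, all lower, with 0.834 (authors' deposited table). Per Mb, Galntl6 held 7.02 regions, the rest of the stretch 8.34, Tenm3 7.71, Stox2 21.4 and Enpp6 25.4. None of these differences between genes was tested.

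**Figure D5:**
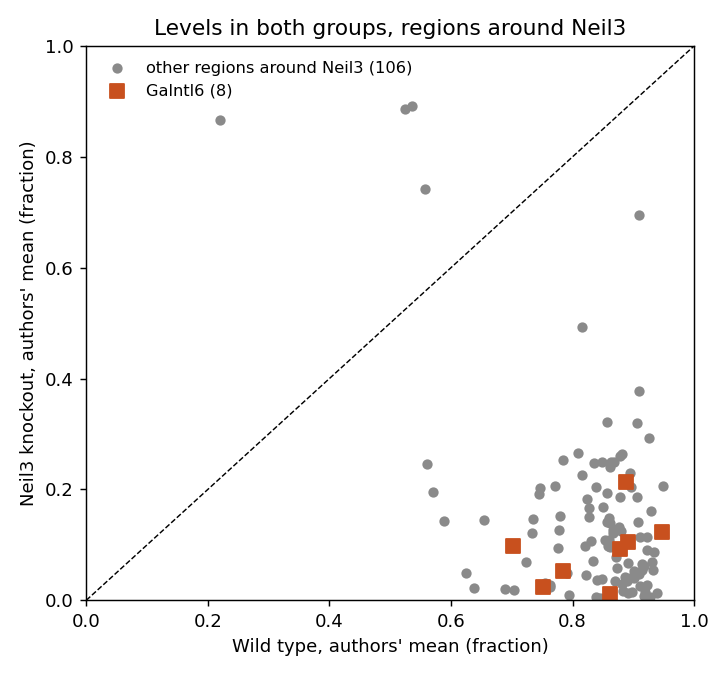
Authors' mean methylation (fraction) in wild type against Neil3 knockout for the 8 regions of Galntl6 (squares) and the 106 other regions around Neil3 (circles), with equal levels on the dashed line. The squares lie far below the line, among the circles, with knockout means of 0.0119 to 0.213.

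Few genes of any kind held a listed region, 47 of the 21900 annotated protein-coding genes (0.215%), so counts of 0 in short lists are the background and say nothing of the pathway. Of 19 genes of the N-acetylgalactosaminyltransferase family, all found in the annotation, Galntl6 alone held a region. The 18 without one include Galnt13, a family member of neurons, and Galnt7, which acts on already glycosylated peptides. Galnt7 held 0 regions over 129 kb, where the density of the rest of the stretch would give 1.08. Of 15 genes that extend or cap the first sugar, among them C1galt1, which makes the core 1 structure, and its chaperone C1galt1c1, 0 held a region. None but Galntl6 and Galnt7 had a listed region within 100 kb.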

How the data were processed

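CpG methylation came from bisulfite sequencing of CA1 DNA of 3 wild type and 3 Neil3 knockout mice. The labels call the molecule RNA, but their protocol describes sonicated, bisulfite-converted DNA. Reads were aligned with BSMAP to GRCm38 (mm10), per the submitters' processing notes. The steps that called regions, and any coverage minimum, were not given in the sources used here. Methylation levels were deposited by the authors as a fraction from 0 to 1, 1 mean per group and region, with a q-value, a difference and a CpG number. The gene table deposited by the authors gives G and C content in percent, gene bounds and starts. Group order comes from the sheet title alone. In the 8 Galntl6 regions the deposited difference matched the 2 means within 0.001. It did not in 17 of all 230 regions, 2 of them among the 106 other regions around Neil3, and in 1 of the 17 the sign differed; shares and medians over those sets use the deposited difference. The counting of positions, from 0 or from 1, is not stated, so bounds may be off by 1 base.

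Listed regions were placed on RefSeq genes of GRCm38.p6, and all named genes matched. Length is end minus start, and density is CpGs per 100 bp. The stretch around Neil3 joins listed regions of chromosome 8 less than 2 Mb apart. Start windows come from RefSeq. Overlap, merging and joining were tested on simulated regions (Python 3.11.15, pandas 2.3.3). No statistical test was run, since values per animal are not in the tables used. The members and gene lists were chosen with earlier results of these data known. All regions of the gene, those next to it, listed genes of the pathway with a region, and the 3 genes of the stretch with the most regions were to be named. Galnt7, Galnt13, C1galt1 and C1galt1c1, and the genes inside Galntl6, were named besides.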

Additional observations from a re-analysis of the deposited data

How the results depend on the processing

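The 8 regions stayed 8 when a region had to lie wholly, or by its midpoint, inside the gene, with the gene bounds of the authors' second table, with the gene extended by 5 kb, and with a difference of at least 0.5. With a q-value under 0.001 the count was 5. With at least 20 CpGs it was 1, because only the region of 37 CpGs reaches that limit. Merging regions less than 10 kb apart gave 6 regions, or 5.26 per Mb. Leaving out each region in turn gave medians of 0.861 to 0.878 for wild type, 0.0933 to 0.0977 for the knockout, -0.78 to -0.73 for the difference and 1.73 to 1.90 CpGs per 100 bp. Weighting by CpG number gave 0.821 for wild type against 0.0810 for the knockout, and all CpGs over all bases gave 2.56 per 100 bp. The setting without the region of 37 CpGs, chosen after seeing the data, gave 1.73. No paired analysis was possible because the table holds 1 mean per group, and leaving out each animal was not run for the same reason. The depth behind every level is unknown, so the precision of low levels such as 0.0119 is unknown too.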
